A study of Mus musculus with 6 samples.

Results

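The clustered protocadherins are cadherin-related adhesion receptors encoded in 3 gene clusters, Pcdha (alpha), Pcdhb (beta) and Pcdhg (gamma), which lie next to each other on mouse chromosome 18. Members were taken by symbol from a table of 16671 genes, as every row whose symbol begins with Pcdha, Pcdhb or Pcdhg and a member number. This gave 47 genes of 58 annotated in RefSeq, namely 4 of 14 alpha genes, 21 of 22 beta genes and 22 of 22 gamma genes. The other 11 were not analysed here, and the lowest mean of any gene in the table is a normalised read count of 1.00. Although membership goes by symbol, the family was selected on its log2 fold changes and calls in this same comparison, so the values of its members describe these libraries, and no p-value is given for a member.

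The samples were fibroadipogenic progenitors (FAPs), a stromal cell of the muscle interstitium, isolated by FACS from hind limb muscles of wild type mice that were 4 to 5 months old. The C1q group (3 libraries) had received C1q at 100 µg/ml, and the control group (3 libraries) vehicle. C1q is the recognition protein of the classical complement pathway. The cDNA was synthesised from 10 ng of RNA with a SMART-Seq kit for small inputs. The labels do not give the duration of treatment, the sex of the mice, or the animal or culture behind each replicate, so the p-values rest on the spread among these libraries alone, which may be technical. Their extraction text speaks of muscle stem cells where the cell type label says FAPs.

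In each cluster a row of large first exons, each with a promoter of its own, encodes the extracellular cadherin repeats, the membrane span and the start of the cytoplasmic tail. In the alpha and gamma clusters each of these variable exons is spliced to the same set of constant exons, which encode a tail shared by the whole cluster, whereas beta genes stand alone without constant exons. The family is best known from neurons, where a cell uses a small, partly random set of variable exons and the proteins bind like with like between cells, and where CTCF, cohesin and DNA methylation take part in promoter choice. The last members of the alpha and gamma clusters, called C-type, have promoters that are regulated differently from the rest. Gamma protocadherins are also made outside the nervous system.

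In RefSeq coordinates of GRCm38 the alpha genes span positions 36930285 to 37188897, the beta genes 37264998 to 37521419 and the gamma genes 37661775 to 37841873. The exonic sequence found in no other coding gene of the GENCODE annotation was 2499 to 3247 bases long for the gamma members and 2801 to 8695 bases for the beta members. A gamma gene also carries about as much again in shared exons, 2119 bases in the case of Pcdhgc3. How reads on shared exons were counted is not given in the sources used here. Pcdhgb8 held 42 to 71 reads in the C1q libraries and 7 to 66 in the control libraries, while Pcdhgc3 held 10115 to 14153 in the C1q libraries and 1714 to 15274 in the control libraries, so reads on the shared exons cannot have been added in full to every gamma gene. Members are close in sequence, and reads that map to several of them are uncertain.

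Depth was 24046020 to 31929119 reads in the C1q libraries and 5379209 to 38861152 in the control libraries, counted over the genes of the table. Control replicate 3 is the shallowest, and a single read there is worth 4.25 units of the normalised count, against 0.583 to 0.975 in the other libraries. All 47 members were detected in the C1q libraries, and 47, 45 and 44 of them in control replicates 1, 2 and 3. Control replicate 3 held fewer than 10 reads for 13 members, of which 2 were called. The FAP markers Pdgfra, Ly6a, Cd34, Dcn, Dpt, Pi16, Col1a1 and Col3a1 were all present, with a summed level of 639907 to 827449 in the C1q libraries and 361400.5 to 487783 in the control libraries. Of these 8 markers 5 were called higher and 0 lower, where 19.7% of all genes were called higher and 18.7% lower. Ly6a, Cd34 and Col3a1 were not called.

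The family as a whole was more abundant in the cells treated with C1q. Its 47 members summed to a normalised read count of 21267, 21743 and 19624 in C1q replicates 1 to 3, against 16614, 13306 and 14717 in control replicates 1 to 3. Every C1q library stood above every control library. In the fit over all genes 22 of 47 members were called higher and 0 lower, where 19.7% of all genes were called higher and 18.7% lower (limma-trend on the log2 normalised read count with a pseudocount of 1, Benjamini-Hochberg adjusted p below 0.05). The log2 fold change was above 0 for 46 of 47 members, and its median over members was 0.76, beside 0.03 over all genes. These include Pcdha9 and Pcdha12, which averaged 0.777 in control libraries, under the lowest gene mean of 1.00. Both therefore reached that lowest mean only through their C1q libraries, with 4 reads each in control replicate 1 and 0 in control replicates 2 and 3. In 28 members all C1q libraries lay above all control libraries, as they did in 26.8% of all genes. The longest transcript of the median member has 4692 bases, against 3339 for the median gene, and with the dependence of fold change on length taken out over all genes, 18 of 47 members were called higher, beside 14.1% of all genes. In bulk RNA a larger number of expressing cells and more RNA per cell cannot be told apart.

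**Figure D1:**
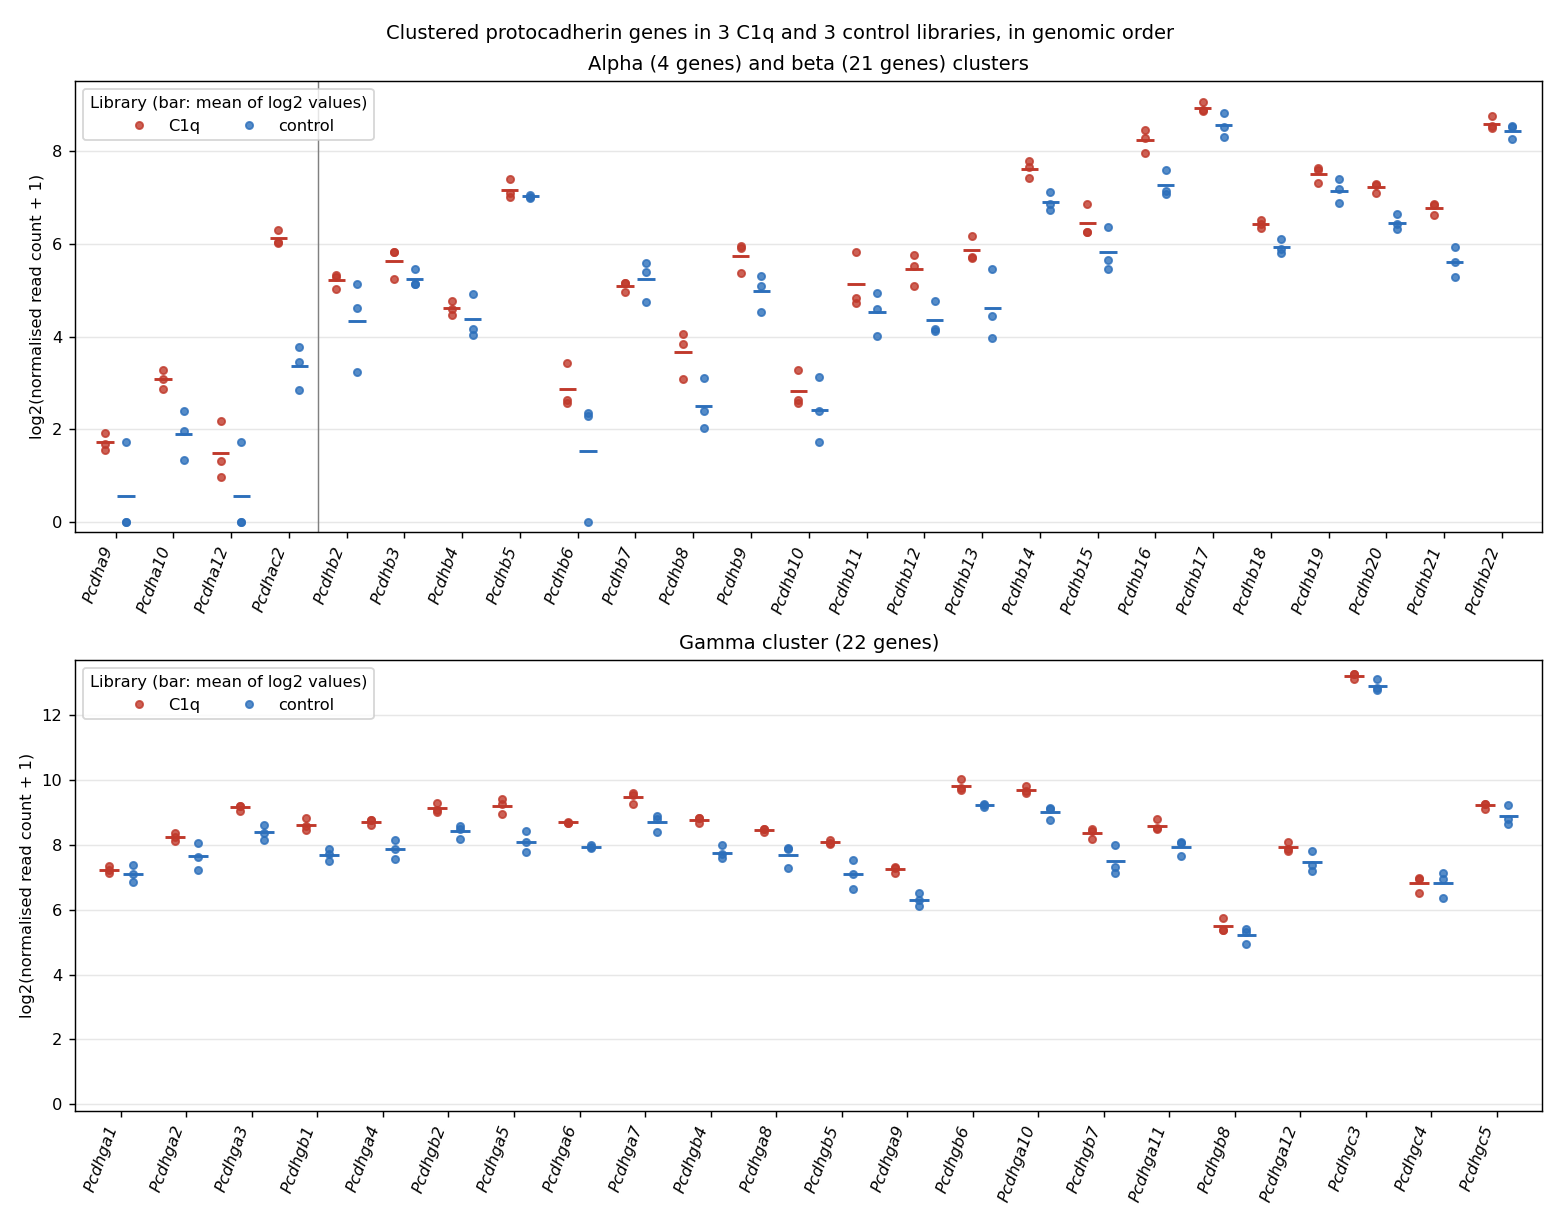
Each point is a library, with the log2 of the normalised read count plus 1 on the y axis and the members in genomic order on the x axis, C1q libraries in red to the left of control libraries in blue. Bars are means of the log2 values. The red points of most gamma members and of Pcdhac2 sit above the blue ones, while those of Pcdhb5, Pcdhb22, Pcdhga1 and Pcdhgc4 overlap.

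The alpha cluster was nearly silent apart from its last gene. Pcdhac2, a C-type alpha member (Entrez gene 353237, positions 37143678 to 37187663), had a normalised read count of 63.4, 77.0 and 65.0 in C1q replicates 1 to 3, against 9.91, 6.18 and 12.8 in control replicates 1 to 3. The reads behind these values were 90, 79 and 87 in the C1q libraries, against 17, 8 and 3 in the control libraries. The groups were far apart, with a log2 fold change of 2.76 ± 0.31 (SE), a 6.75-fold difference and the largest of any member. Pcdhac2 was called higher in each of the 19 alternative settings, and leaving out 1 library gave log2 fold changes between 2.50 and 2.97.

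The other alpha members had a handful of reads each. Pcdha10 had 9, 9 and 10 reads in C1q replicates 1 to 3, against 5, 2 and 1 in control replicates 1 to 3, and normalised read counts of 6.34, 8.77 and 7.47 with C1q, against 2.91, 1.54 and 4.25 in control libraries. Its groups did not overlap, and it was not called (log2 fold change 1.18 ± 0.45). It was called without control replicate 3, at 1.43, and with edgeR run without its filter, at 1.54. Pcdha9 had 4, 2 and 3 reads with C1q, against 4, 0 and 0 in the control libraries. With so few reads its groups overlapped, and a difference was not detectable at this depth. The alpha cluster summed to 76.1, 88.7 and 76.2 units in the C1q libraries and 17.5, 7.72 and 17.0 in the control libraries, which was 0.385% ± 0.025 of the family in C1q libraries and 0.0929% ± 0.031 in control libraries (SD, n = 3 each), and Pcdhac2 made up most of it.

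Most of the family's reads came from the gamma cluster, which held 87.7% ± 1.47 of the family's normalised reads in C1q libraries and 88.0% ± 2.10 in control libraries (SD, n = 3 each). Of its 22 members 15 were called higher and 0 lower, beside 19.7% and 18.7% of all genes. All of the called genes belong to the A and B types, the members with alternatively chosen variable exons, of which 15 of 19 were called with log2 fold changes of 0.60 to 1.12. Of the 3 gamma C-type members 0 were called. The A and B members summed to 8252, 8478 and 7484 units in C1q replicates 1 to 3, against 5369.5, 4164 and 4889 in control replicates 1 to 3, a 1.68-fold difference of the means. The C-type members summed to 10713, 10599 and 9440.2 in the C1q libraries, against 9646, 7472 and 7814 in the control libraries, a 1.23-fold difference. The A and B groups were apart, whereas the C-type groups overlapped.

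Relative to the control libraries, the C1q libraries had the balance of the gamma cluster shifted toward the A and B members. The ratio of their summed level to that of the C-type members was 0.770, 0.800 and 0.793 in C1q replicates 1 to 3, against 0.557, 0.557 and 0.626 in control replicates 1 to 3. This ratio does not depend on library scaling. The exonic sequence of their own was of similar length, 2499 to 3247 bases in the A and B members and 2568 to 2905 in the C-type members. The median longest transcript had 4720 bases in A and B members and 5024 in C-type members. What part reads on shared exons have in the ratio was not tested. With the length trend removed, 13 of 19 A and B members were called higher with a median of 0.56, and 0 of 3 C-type members with a median of 0.01. The share of all genes called higher in that fit was 14.1%.

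**Figure D2:**
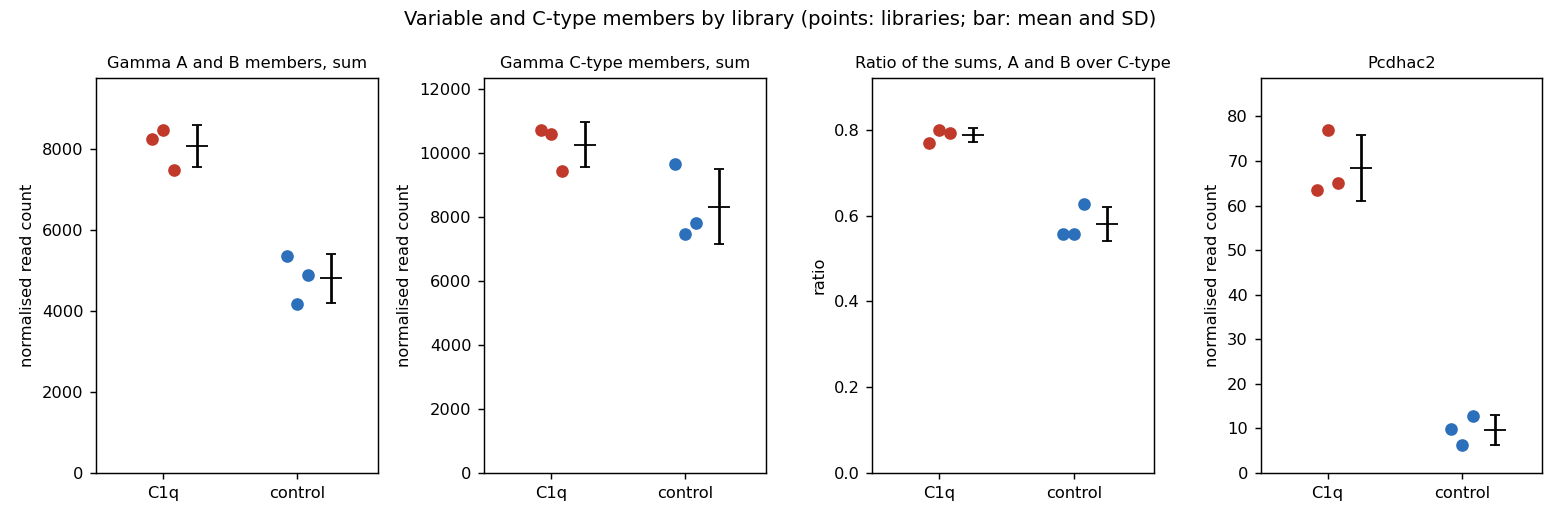
Points are libraries and the bars beside them the mean and SD, for the summed normalised read count of the 19 gamma A and B members, that of the 3 gamma C-type members, the ratio of the sums, and the normalised read count of Pcdhac2. C1q libraries are to the left. The ratio was 0.770 to 0.800 in the C1q libraries and 0.557 to 0.626 in the control libraries.

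Among the A and B members, Pcdhgb6 had the highest level and was the first in all 6 libraries. It stood at 864, 1036 and 820.3 normalised reads in C1q replicates 1 to 3, against 609, 581 and 595 in control replicates 1 to 3. The groups did not overlap (log2 fold change 0.60 ± 0.10, and 0.40 with the length trend removed). Pcdhga10 was close behind, at 809, 907 and 771 with C1q, against 565, 437 and 548 in the control libraries (0.69 ± 0.12). Both kept their call in all 19 alternatives.

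The largest differences among gamma members were those of Pcdhga5, Pcdhgb4 and Pcdhgb5. Pcdhga5 had 679, 615 and 493 normalised reads in C1q replicates 1 to 3, against 341, 272 and 217 in control replicates 1 to 3 (log2 fold change 1.12 ± 0.19). Pcdhgb4 had 457, 451 and 409 with C1q, against 252, 192 and 208 in control libraries (1.02 ± 0.12). Pcdhgb5 had 282, 265 and 261 with C1q, against 184, 98.8 and 136 in control libraries (0.99 ± 0.21). In all of these genes the lowest C1q library was above the highest control library. Control replicate 3 rests on 51, 49 and 32 reads of Pcdhga5, Pcdhgb4 and Pcdhgb5.

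The 4 A and B members that were not called were Pcdhga1, at the start of the cluster, the neighbouring Pcdhga2, and Pcdhgb8 and Pcdhga12 near the end of the A and B row. Pcdhga1 averaged 150 ± 12.4 normalised reads with C1q and 139 ± 25.2 in control libraries (SD, n = 3 each), and its groups overlapped. Pcdhgb8, which RefSeq gives as a transcribed pseudogene, averaged 44.7 ± 7.22 with C1q and 36.6 ± 6.17 in control libraries. Pcdhga2 was not called, although its groups did not overlap (303 ± 28.1 with C1q and 205 ± 59.8 in control libraries). Pcdhga12 averaged 243 ± 26.7 with C1q and 178 ± 41.5 in control libraries, with groups that overlapped. With the replicate number as a block 17 of 19 were called, Pcdhga2 and Pcdhga12 among them. In that fit 21.3% of all genes were called higher. Pcdhgb7, which was called at 0.88, lost its call without C1q replicate 1, C1q replicate 2 or control replicate 2, with the length trend removed and with all libraries thinned to the depth of the shallowest.

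Pcdhgc3, a C-type gamma member long known to be expressed widely (Entrez gene 93706, positions 37806410 to 37841873), was by far the most abundant of the family. It had 9972, 9858 and 8795 normalised reads in C1q replicates 1 to 3, against 8900.1, 6950.1 and 7286 in control replicates 1 to 3. Control replicate 1 lay above the lowest C1q library, so the groups overlapped (log2 fold change 0.31 ± 0.11, not called). It was called with the replicate number as a block, with DESeq2, with limma-voom, with a trend on GC content removed and without control replicate 1 (0.42). With the length trend removed it was at 0.11 and not called, with or without the block. Its share of the gamma cluster was 52.6%, 51.7% and 52.0% in the C1q libraries, against 59.3%, 59.7% and 57.4% in the control libraries, so every C1q library had the lower share.

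Per kilobase of own exon, Pcdhgc3 reached 3716 ± 253 normalised reads in C1q libraries and 3003 ± 406 in control libraries (SD, n = 3 each). The median A or B member reached 152 with C1q and 85.4 in control libraries on the same scale. These values divide all reads counted for a gene by its own exon length alone. What part reads on shared exons have in them was not tested. The next C-type gene, Pcdhgc5, had 619, 616 and 554 normalised reads in C1q replicates 1 to 3, against 605, 401 and 446 in control replicates 1 to 3 (0.32 ± 0.15, not called, but called without control replicate 1 at 0.49, and at 0.008 with the length trend removed). Pcdhgc4, which in mice is the gamma member needed for the survival of many neurons, had 122, 125 and 91.1 with C1q, against 140.4, 121 and 80.8 in control libraries. The 2 groups covered almost the same range, with a difference of 0.00 ± 0.24 whose sign changed with the setting.

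**Figure D3:**
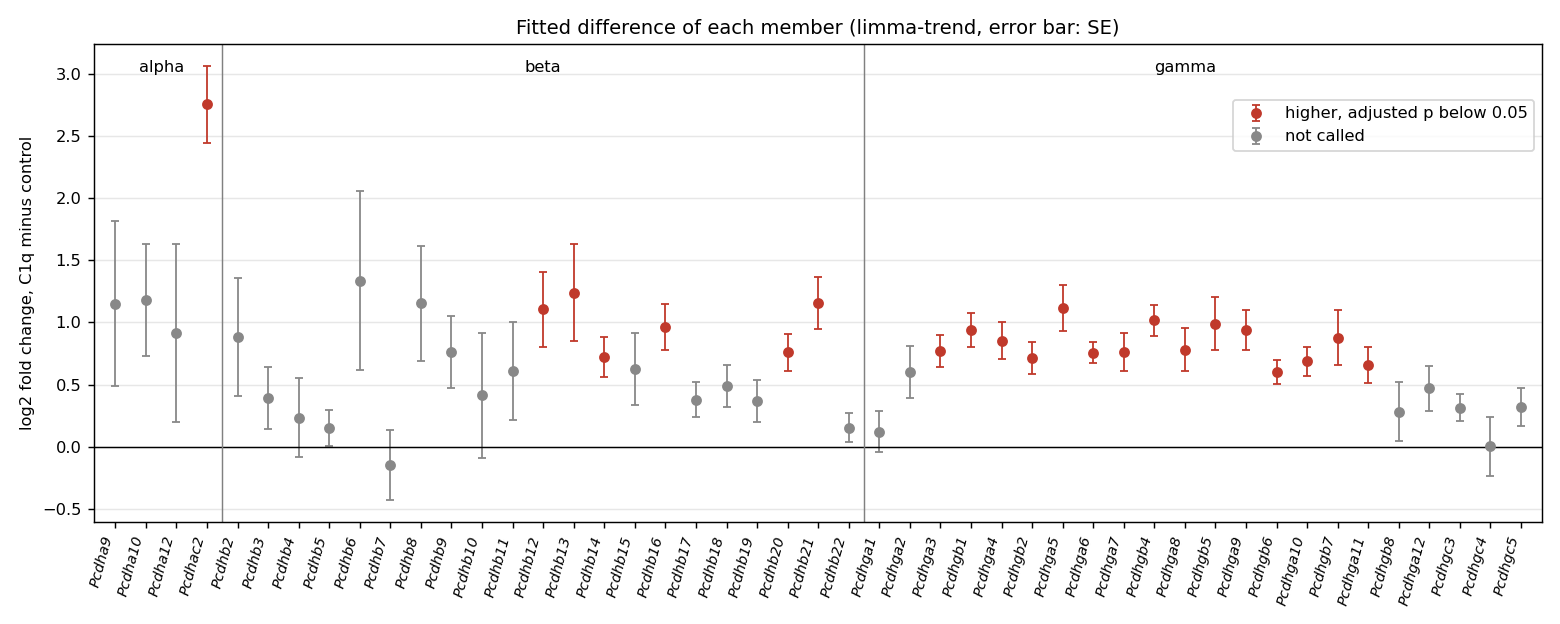
Points are the fitted log2 fold changes, C1q minus control, of the 47 members in genomic order, with the SE as error bar and called members in red. The gamma members from Pcdhga2 to Pcdhga11 form an even row between 0.60 and 1.12, the gamma C-type members at the right end lie between 0.00 and 0.32, and Pcdhac2 stands apart at 2.76.

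The beta cluster, whose proteins have no shared tail, held 11.9% ± 1.45 of the family's normalised reads in C1q libraries and 11.9% ± 2.10 in control libraries (SD, n = 3 each). Its sum was 2226, 2577 and 2624 units in C1q replicates 1 to 3, against 1581, 1662 and 1998 in control replicates 1 to 3. The groups were apart, with a 1.42-fold difference of the means. Of 21 beta members 6 were called higher and 0 lower, a share to be read beside the 19.7% of all genes. The called genes were Pcdhb12, Pcdhb13, Pcdhb14, Pcdhb16, Pcdhb20 and Pcdhb21, with log2 fold changes of 0.72 to 1.24. Pcdhb14, the longest of them in GENCODE with 8695 bases, was at 0.20 and not called with the length trend removed. That length exceeds its RefSeq span, positions 37447657 to 37451094. Pcdhb17, Pcdhb21 and Pcdhb22 also have more exonic bases in GENCODE (4660, 4250 and 6154) than their RefSeq spans, as do other beta genes. The part of these lengths in the length-corrected values was not tested. A further 4, Pcdhb6, Pcdhb9, Pcdhb17 and Pcdhb18, were not called although their groups did not overlap. Counting called and uncalled genes, all C1q libraries lay above all control libraries in 10 of 21 beta members, beside 26.8% of all genes.

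The most abundant beta genes differed in how far apart their groups were. Pcdhb17 had 466, 463 and 527 normalised reads in C1q replicates 1 to 3, against 314, 365 and 451 in control replicates 1 to 3 (log2 fold change 0.38 ± 0.14). It was not called, but it was with edgeR, DESeq2, limma-voom, the replicate block and without control replicate 3 (0.52). It was at 0.18 and not called with the length trend removed, with or without the block, or with thinned libraries, and at 0.21 with the GC trend removed. Pcdhb22, the last of the row, had 357, 428 and 366 with C1q, against 369, 306 and 361 in control libraries. Its groups overlapped (0.15 ± 0.12), and the difference was -0.23 with the length trend removed. Pcdhb16 had 245, 309.9 and 346 with C1q, against 132, 139 and 191 in control libraries (0.96 ± 0.19). It was called in all 19 alternatives.

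Pcdhb13, Pcdhb21 and Pcdhb12 had the largest differences among beta members with a mean of at least 20. Pcdhb13 had 51.4, 50.7 and 71.0 normalised reads in C1q replicates 1 to 3, against 14.6, 20.8 and 42.5 in control replicates 1 to 3 (1.24 ± 0.39). This call was lost in 5 of the 6 fits that leave out a library, all but that without control replicate 3, and with the length trend removed, the GC trend removed or thinned libraries. Its log2 fold change in these fits was 0.83 to 1.32. Pcdhb21 had 96.5, 114 and 112 with C1q, against 47.8, 37.8 and 59.5 in control libraries (1.16 ± 0.21), a call lost with thinned libraries, where it was at 1.67. Pcdhb12 had 33.1, 44.8 and 53.0 with C1q, against 16.3, 26.3 and 17.0 in control libraries (1.10 ± 0.30), where control replicate 3 held 4 reads. Its call was lost without C1q replicate 2, C1q replicate 3 or control replicate 1, and with thinned libraries, at 0.95 to 1.12.

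The called beta genes of the unblocked fit lie in the second part of the row. From Pcdhb12 to Pcdhb22, 6 of 11 were called with a median log2 fold change of 0.72, while from Pcdhb2 to Pcdhb11, 0 of 10 were called with a median of 0.51. In that fit 19.7% of all genes were called higher. The split of the row was made after the values were seen. Over all 21 beta genes, Spearman's rho between log2 fold change and position in the row was 0.06. With the replicate block 9 beta genes were called, Pcdhb9 of the first part among them, beside 21.3% of all genes called higher. Levels also differ along the row, with a median normalised read count of 117 from Pcdhb12 to Pcdhb22 and 29.2 from Pcdhb2 to Pcdhb11, and the part of level in the calls was not tested. Pcdhb5, the exception in level, averaged 143 ± 21.4 with C1q and 128 ± 3.14 in control libraries, and its groups overlapped. Pcdhb7 averaged 33.0 ± 2.44 with C1q and 37.8 ± 10.9 in control libraries, and was the only member with a fold change below 0 (-0.15 ± 0.28).

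The order of members by level was much the same in both groups. Spearman's rho between the mean levels with C1q and in control libraries was 0.960 over the 19 gamma A and B genes and 0.945 over the 21 beta genes, given as a description across genes of the same libraries. Pcdhgb6 was the first of the A and B genes in every library, with 10.5% to 12.2% of their sum in C1q libraries and 11.3% to 13.9% in control libraries. Pcdhgb8 was the last in every library. Among beta genes Pcdhb17 led in all C1q libraries and in control replicates 2 and 3, and Pcdhb22 in control replicate 1.

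Other protocadherins and cadherins were examined from lists of related genes. Counts called in these lists stand beside 19.7% of all genes called higher and 18.7% lower, or 14.1% higher with the length trend removed. Of 10 non-clustered protocadherins 5 were called higher and 0 lower, with a median log2 fold change of 0.59. Pcdh18, which lies on another chromosome, had 2146 ± 338 normalised reads with C1q and 702 ± 99.1 in control libraries (SD, n = 3 each, log2 fold change 1.61 ± 0.14, adjusted p 2.68e-04 in limma-trend). Pcdh20 averaged 38.3 ± 7.10 with C1q and 9.04 ± 2.40 in control libraries (1.98 ± 0.31, adjusted p 0.00228), a call lost with thinned libraries, where it was at 3.01. Pcdh9 averaged 414 ± 93.2 with C1q and 171 ± 50.9 in control libraries (1.29 ± 0.24, adjusted p 0.00504). Pcdh7 was called at 0.61, but stood at 0.09 and was not called with the length trend removed, when 3 of the 10 were higher and 1 was lower.

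The giant cadherins of the Fat and Dachsous families, which take part in planar polarity and growth control, held the largest difference among the related genes that are named here. Of 6 genes of this list 3 were called higher and 1 lower. Fat4 averaged 6425 ± 676 normalised reads with C1q and 908 ± 165 in control libraries (log2 fold change 2.83 ± 0.14, adjusted p 1.04e-04). Fat1 averaged 20627 ± 1241 with C1q and 8097 ± 1174 in control libraries (1.36 ± 0.12, adjusted p 2.68e-04, and 0.66 with the length trend removed, still called), and Dchs1, a binding partner of Fat4, 2072 ± 241 with C1q and 1165 ± 69.2 in control libraries (0.83 ± 0.10, adjusted p 7.33e-04). Dchs1 was at 0.22 and not called with the length trend removed. Celsr3, a cadherin of the planar polarity pathway, was lower (8.73 ± 0.26 with C1q and 28.0 ± 10.3 in control libraries, log2 fold change -1.51 ± 0.35), a call lost with thinned libraries, where it was at -2.84.

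Of 13 classical and related cadherins 2 were called higher and 1 lower. Cdh11, the cadherin typical of mesenchymal cells, averaged 20347 ± 938 with C1q and 10317 ± 1301 in control libraries (log2 fold change 0.99 ± 0.11, adjusted p 5.64e-04), and Cdh3 averaged 572 ± 100.2 with C1q and 185 ± 62.1 in control libraries (1.67 ± 0.26). Cdh15, the cadherin of muscle precursor cells, averaged 111 ± 25.3 with C1q and 439 ± 327 in control libraries (-1.75 ± 0.46, adjusted p 0.0205). Its call was lost without C1q replicate 1 (-1.60) or C1q replicate 3 (-1.72). Cdh13, which lacks a cytoplasmic tail, averaged 485 ± 81.4 with C1q and 718 ± 227 in control libraries and was not called (-0.53 ± 0.22, adjusted p 0.0932). It was called lower with DESeq2, with limma-voom, with the length trend removed and without control replicate 3.

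Of 25 chromatin factors listed here as possible regulators of the clusters, 13 were called higher and 1 lower, with a median log2 fold change of 0.28. Smchd1, which silences clustered protocadherin genes in mice, averaged 1620.4 ± 37.4 with C1q and 966 ± 129 in control libraries (0.75 ± 0.10, adjusted p 0.00117). The cohesin regulator Pds5b averaged 1875 ± 51.9 with C1q and 1153 ± 77.5 in control libraries (0.70 ± 0.07), Pds5a 1443 ± 50.6 with C1q and 914 ± 103 in control libraries (0.66 ± 0.09), and Atf7ip, a partner of the methyltransferase Setdb1, 2475 ± 142 with C1q and 1525 ± 117 in control libraries (0.70 ± 0.08). Ctcf itself was not called (1733 ± 75.9 with C1q and 1555 ± 114 in control libraries, adjusted p 0.136), nor was the DNA methyltransferase gene Dnmt3b (36.1 ± 8.16 with C1q and 40.1 ± 9.55 in control libraries). The related methyltransferase gene Dnmt3a was called higher (644 ± 113 with C1q and 434 ± 66.5 in control libraries, 0.56 ± 0.15, adjusted p 0.0228). With the length trend removed 3 of the 25 were called higher, beside 14.1% of all genes, and 2 lower. Smchd1 at 0.34 and Pds5b at 0.26 were still called, and Pds5a and Atf7ip were not.

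Gamma protocadherins are shed by the protease ADAM10 and then cut within the membrane by gamma-secretase. Of 7 genes for these enzymes 2 were called higher and 2 lower. Adam10 averaged 2643 ± 60.1 normalised reads with C1q and 1743 ± 286 in control libraries (log2 fold change 0.61 ± 0.12, adjusted p 0.00536). Among gamma-secretase subunits, Psenen averaged 728 ± 16.4 with C1q and 1205 ± 42.6 in control libraries (-0.73 ± 0.06), and was at -0.06 and not called with the length trend removed. Ncstn was called lower (-0.26 ± 0.06), a call lost without C1q replicate 2 (-0.27) or 3 (-0.23), and Aph1b was called higher (0.52 ± 0.11), a call lost with the length trend removed (0.27).

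Of 18 partners of protocadherins at the membrane and in the cytoplasm, among them the WAVE complex that drives actin branching, 9 were called higher and 1 lower. Wasf3, a WAVE subunit, averaged 214 ± 23.8 with C1q and 63.8 ± 8.66 in control libraries (log2 fold change 1.73 ± 0.16, adjusted p 3.55e-04). The WAVE subunit Brk1 was the gene called lower (-0.24 ± 0.07, adjusted p 0.0228), and the subunits Cyfip1 (0.10 ± 0.06) and Cyfip2 (0.12 ± 0.24) were not called. Wasf2 was at 0.67 ± 0.08 and Nckap1 at 0.50 ± 0.07, or 0.37 and 0.31 with the length trend removed, where both were still called. Higher too was Marcks, an actin-regulating substrate of protein kinase C, at 1.11 ± 0.17, with 61160 ± 6830 normalised reads with C1q and 28594 ± 5813 in control libraries. Axin1, which binds the tail of PCDHGC3 and acts in Wnt signalling, averaged 1364 ± 53.2 with C1q and 1326 ± 41.2 in control libraries and was not called (adjusted p 0.647).

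Of 14 genes measured that lie beside or between the clusters, 4 were called higher and 4 lower, with a median log2 fold change of -0.08. Of all genes 19.7% were called higher and 18.7% lower. With the length trend removed 1 was called higher and 1 lower, with a median of -0.01. Taf7, a transcription factor subunit whose gene stands between the beta and gamma clusters, averaged 94.5 ± 9.97 with C1q and 64.7 ± 7.31 in control libraries (0.54 ± 0.18, adjusted p 0.0443). On the far side of the gamma cluster Diaph1, an actin nucleator, was higher (0.39 ± 0.07) and Hdac3 was not called (0.01 ± 0.08, adjusted p 0.911), with Fchsd1 further on at 0.81 ± 0.10. On the alpha side Hars and Ndufa2 were lower, at -0.39 ± 0.06 and -0.88 ± 0.08, with Hars at -0.23 and still called with the length trend removed. Diaph1 and Ndufa2 were not called with the length trend removed, at 0.08 and -0.11. Taf7, Hdac3, Ctcf, Dnmt3a, Dnmt3b, Brk1, Cyfip1, Cyfip2 and Axin1 are outside the rule for named genes and were chosen after their values were seen.

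**Figure D4:**
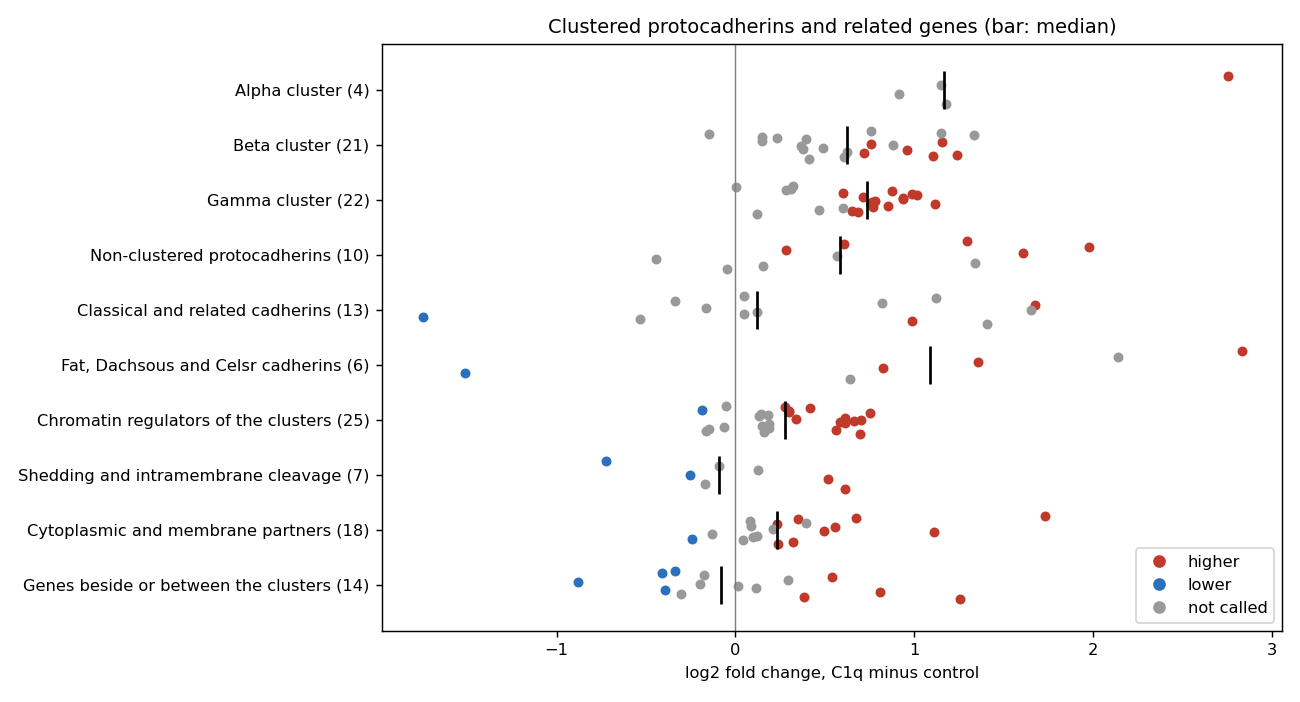
Each point is a gene, with its log2 fold change, C1q minus control, on the x axis and the gene lists down the page with the number of genes measured. Red genes were called higher, blue ones lower and grey ones not called, and bars are medians. The cluster medians are 1.17 (alpha), 0.63 (beta) and 0.73 (gamma), and that of the genes beside or between the clusters is -0.08. The alpha median includes Pcdha9 and Pcdha12, which reached the lowest mean of any gene measured only through their C1q libraries.

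Markers of other cell types were measured in the same libraries. Their calls stand beside 19.7% of all genes called higher and 18.7% lower. Of 5 neuronal markers measured 1 was called higher (Map2), with a summed level of 416 to 485 in C1q libraries and 306 to 454 in control libraries. Of 6 muscle-lineage markers 0 were called higher and 4 lower, with a sum of 3821 to 5105 in C1q libraries and 5463 to 18707 in control libraries. Of 5 mural cell markers 3 were called higher (4640.1 to 6201 in C1q libraries and 2407 to 2682 in control libraries). Endothelial markers summed to 572 to 1274 in C1q libraries and 608 to 1287 in control libraries, and 3 immune markers to 49.3 to 110.1 in C1q libraries and 93.5 to 106.6 in control libraries, with 0 called in either list. Of the neuronal markers, Map2 averaged 154 with C1q and 25.1 in control libraries, and Tubb3 275 with C1q and 338 in control libraries. Nefl, Nefm and Stmn2 averaged 0.57, 7.60 and 5.32 normalised reads with C1q and 4.00, 6.45 and 3.54 in control libraries. The neuronal markers Rbfox3, Snap25, Syt1, Elavl3 and Elavl4 and the immune markers Ptprc and Cd52 were listed but not measured. A gene at 0 in all libraries could not be among those measured, whose lowest mean is 1.00. The part of any other cell type in the protocadherin levels was not tested.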

How the data were processed

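RNA sequencing of 6 libraries (3 C1q, 3 control) was analysed from 1 deposited table. The submitters' processing notes list build mm10 and the tools HISAT2, Trimmomatic, DESeq2 and featureCounts. Not given in the sources used here are their versions, the annotation, the strand setting and the treatment of reads on shared exons. The deposited values are a normalised signal, in which each library's reads per Entrez gene were scaled by a constant, as the values show. They are whole multiples of a single read in 100% of cases (tolerance 0.001 reads), so reads were recovered and used for count tests as alternatives.

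Symbols and positions came from RefSeq (GRCm38.p6), where 16077 of 16671 IDs matched, and exons and transcript lengths from GENCODE vM21, with a length for 14934 genes and all 47 members. A member's own exon length counts bases in no other coding gene there. Pcdha10 had no such entry. Without a strand setting, reads of opposite-strand genes cannot be separated. Such exons overlap 10 of 46 members, Pcdhgc3, Pcdhga10 and Pcdhb12 among them, and 11 of 28 named related genes, Fat1, Fat4, Dchs1, Ncstn and Psenen among them.

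The test was limma-trend (limma 3.58.1, R 4.3.3) on log2(value + 1) over all genes, with Benjamini-Hochberg adjustment. Fold changes are on that scale and understate changes at low levels. Alternatives were other pseudocounts (0.5, 5), a minimum mean of 10, edgeR 4.0.16, DESeq2 1.42.0, limma-voom, a replicate block, removal of a loess trend on transcript length, thinning to 5379209 reads, and leaving out each library. Removal of a GC trend and scaling to total reads were added after seeing the data. The fits were tested on simulated data. Same-numbered libraries deviated together (r 0.123, 0.175 and 0.132, all over the limit of 0.1), a hint of pairing from the data and not from the labels. All values are from the fit without a block unless the block is named. No 2 replicates agreed within sampling noise (chi-square per degree of freedom 16.5 to 40.3).

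Members, gene lists and the naming rule were chosen with earlier results of these data known. The rule named, per cluster, the 3 members with the highest mean and the 3 with the largest change among means of at least 20, all C-type members, and up to 4 genes of lowest p per related list. This gave 17 members and 28 related genes. Other members are named where a small count is broken down. No sequence is printed, as all members lie on chromosome 18. Normalised values carry no counting interval here. The result of 1 further list of cell type markers is not reported here.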

Additional observations from a re-analysis of the deposited data

How the results depend on the processing

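The count of 22 members called higher was 17 to 30 over the 19 alternatives, and 0 were called lower in each. It was 28 with the replicate block, 18 with the length trend removed and 23 with both. The shares of all genes called higher in these fits were 21.3%, 14.1% and 15.8%. Leaving out 1 library gave 19 to 30. Of the 22, 15 were called in every alternative and 19 in every fit without a library. The beta median log2 fold change of 0.63 moved by less than the spread between replicates throughout. The gamma median of 0.73 was 0.53 with the length trend removed, with or without the replicate block. The alpha median of 1.17 rests on 4 genes with few reads, of which Pcdha9 and Pcdha12 reached the lowest gene mean only through their C1q libraries. It was 0.52 with a pseudocount of 5, and 2.76, 2.94 and 2.87 with a minimum mean of 10, with edgeR after its filter and with limma-voom, where Pcdhac2 is the only alpha gene left. Without 1 library it ran from 0.88 to 1.61. Signs turned for 3 named genes, all uncalled. Pcdhgc4 was at -0.11 and -0.10 with edgeR, -0.088 with DESeq2, -0.20 with limma-voom, -0.24 with the length trend removed (with or without the block), and between -0.23 (without control replicate 3) and 0.17 (without control replicate 1) when 1 library was left out. Pcdhb22 was at -0.23 with the length trend removed (with or without the block), and Pcdha9, with 0 to 4 reads a library, at -0.47 with thinned libraries. Among the 45 named genes the replicate block by itself changed the calls of Pcdhb17 and Pcdhgc3 and no other. The median of all genes lay between -0.012 and 0.038 in every setting. Control replicate 3 limits the precision for members with few reads.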
